A study of Rattus norvegicus with 8 samples.

Results

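The genes described here encode proteins that carry out or steer the splicing of messenger RNA, measured in the rat neurohypophysis (neural lobe) at 2 ages. They were picked by symbol: heterogeneous nuclear ribonucleoproteins (Hnrnp), serine/arginine-rich splicing factors (Srsf), subunits of splicing factor 3a and 3b (Sf3a, Sf3b), small nuclear ribonucleoprotein genes (Snrp), the serine/arginine repetitive matrix genes (Srrm), and the Celf, Rbfox, Nova, Elavl, Mbnl and Ptbp families. Of 33294 genes listed, 80 matched by name, and 78 of them reached a minimum of 10 depth-normalized counts in 4 or more of the 8 libraries. The depth-normalized count is a gene's read count divided by 1 size factor per library. The 2 that did not reach this minimum were Srsf8, at 0 in all 8 libraries, and Snrpep2, at 0.977 in 125-day replicate 2 and 0 in the other libraries. Of the 78 members, 77 reached the minimum in every library and Snrpn in 5 of 8. Qki was not analysed here.

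Splicing removes introns in 2 chemical steps on the spliceosome, which assembles on each intron from small nuclear ribonucleoproteins: U1 recognises the 5′ splice site and U2 the branch point. Sm proteins form the ring that these particles share, SF3 proteins anchor U2, and SR proteins and hnRNPs bind exons and introns to favour or hinder the choice of a site. Families such as Rbfox, Nova, Celf, Elavl, Mbnl and Ptbp bind short sequence motifs and set which exons are used in neurons, endocrine cells, muscle and glia. The neural lobe holds axon terminals of hypothalamic vasopressin and oxytocin neurons, whose cell bodies lie in the brain, together with pituicytes, vessels and connective tissue.

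Libraries of 125 days (4) were set against libraries of 35 days (4), all from male Sprague Dawley rats with no treatment named other than age. The lobes were taken after perfusion with phosphate-buffered saline and frozen, and poly(A) RNA was sequenced. The labels do not say whether each library came from 1 animal or from pooled lobes, and a p-value here speaks only of the scatter among these 8 libraries, which may be technical. Reads assigned to the listed genes, as recovered from the deposited values, numbered between 28429133 and 58696254 per library. In this bulk tissue, fewer cells of a type and less RNA per cell cannot be told apart.

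A single library stood apart. In 35-day replicate 3 the 12 anterior lobe markers (hormone genes such as Gh1 and Prl) summed to 1.40e+06 depth-normalized counts, against 24706 to 228749 in the other 35-day libraries and 7427 to 51503 at 125 days. The 8 melanotroph markers, which include the intermediate lobe hormone precursor gene Pomc, summed to 3.64e+06 to 5.36e+06 at 125 days and 2.03e+06 to 3.77e+06 at 35 days, with 35-day replicate 3 the highest of that age. Their mean log2 level, used below as a covariate, lay between 13.3 and 13.6 at 125 days, against 12.5 to 13.1 at 35 days, with replicate 3 the lowest and no overlap of the ages. Pomc alone held 10.1% to 14.3% of a library's counts at 125 days. At 35 days it held 10.2% in replicate 3 and 5.65% to 6.78% in the other libraries. By the test used below, 3 of the 8 melanotroph markers were higher at 125 days and none lower, while 1 of the 12 anterior lobe markers was higher and 5 were lower. Lower at 125 days were 3 of 12 pituicyte, 6 of 10 endothelial, 7 of 8 fibroblast and mural, 1 of 7 oligodendrocyte and all 12 proliferation markers, with none of these higher; of 8 microglia and macrophage markers 1 was higher and 3 were lower. The 8 markers of the hypothalamic terminals summed to 66256 to 77471 at 125 days, against 53625 to 103742 at 35 days, and 3 were higher and none lower. The highest 35-day sum was that of replicate 3, and the other 35-day libraries reached at most 61570, below every 125-day library. None of the markers in these lists was at 0 in all libraries. Values without 35-day replicate 3, and with the melanotroph marker level as a covariate, stand beside members whose call they changed. The anterior lobe level was the covariate of a further fit. The part of the remaining marker lists in the results was not tested.

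Few of the splicing genes passed the test between the ages. In limma, fitted on log2(depth-normalized count + 1) over the 17919 genes tested, 7 of the 78 members passed a Benjamini-Hochberg adjusted p of 0.05, 2 higher and 5 lower at 125 days. That is 8.97% of the members, beside 17.7% of all genes tested (8.85% higher and 8.87% lower); the difference between these shares was not tested. The median log2 change, 125 minus 35 days, was -0.07 over the members and 0.01 over all genes, and the median absolute change was 0.17 for members and 0.23 for all genes. The sign of the members' median turned in other fits: it was 0.0019 without 35-day replicate 3, 0.04 with the anterior lobe covariate and 0.07 with the melanotroph covariate. Of these 7 genes 5 belonged to the 21 Celf, Rbfox, Nova, Elavl, Mbnl and Ptbp genes, called regulators below. That is 23.8% of the regulators, beside 17.7% of all genes, and this difference was not tested. Without 35-day replicate 3, 3 regulators were higher and 4 lower, beside 15.9% and 14.8% of all genes. The other called members of the first fit were the snRNP genes Snrpc and Snrpa1. Without 35-day replicate 3, 14 members passed (4 higher and 10 lower, beside 15.9% and 14.8% of all genes, 30.7% in all), including all 7 of the first fit. The counts higher and lower were 1 and 4 without 125-day replicate 1 (beside 5.26% and 5.78% of all genes, 11% in all), without 125-day replicate 4 (4.8% and 5.77%, 10.6% in all) or without 35-day replicate 2 (6.07% and 5.95%, 12% in all). They were 4 and 6 without 35-day replicate 4 (8.33% and 8.03%, 16.4% in all), and 3 and 3 without 125-day replicate 2 (7.42% and 8.52%, 15.9% in all).

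Other fits moved the number of calls. With the melanotroph covariate 4 members were higher and 2 lower, beside 5.69% and 6.7% of all genes, and 3 of the 7 calls were kept (Rbfox1, Rbfox3 and Mbnl3), with Celf4, Snrpg and Srsf9 added as higher. The melanotroph level did not overlap between the ages and was lowest in 35-day replicate 3. A call lost or gained with this covariate therefore cannot be assigned to age or to that level. With the anterior lobe level as covariate 3 were higher and 4 lower, beside 7.62% and 7.84%. Ptbp2 and Snrpa1 lost the call, and Celf2 and Celf4 gained it. The mean log2 anterior lobe level was 12.97 in 35-day replicate 3, the highest of all libraries, against 7.27 to 9.12 at 125 days. A call changed by this covariate therefore cannot be told apart from an effect of that library. On the reads recovered from the table, edgeR's quasi-likelihood test called 2 higher and 6 lower, beside 8.47% and 9.22% (3170 genes in all), adding Srsf4, and DESeq2 called 13, beside 23.4%. At an unadjusted p below 0.05 in the first limma fit there were 18 of the 78 members, beside 5666 of all 17919 genes. Library weights, which lower the weight of libraries that vary more, gave 14 higher and 15 lower, beside 22.2% and 21.9% (44% in all). With the replicate number as a block 3 were higher and 5 lower, beside 7.2% and 7.97% (15.2% in all).

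**Figure D1:**
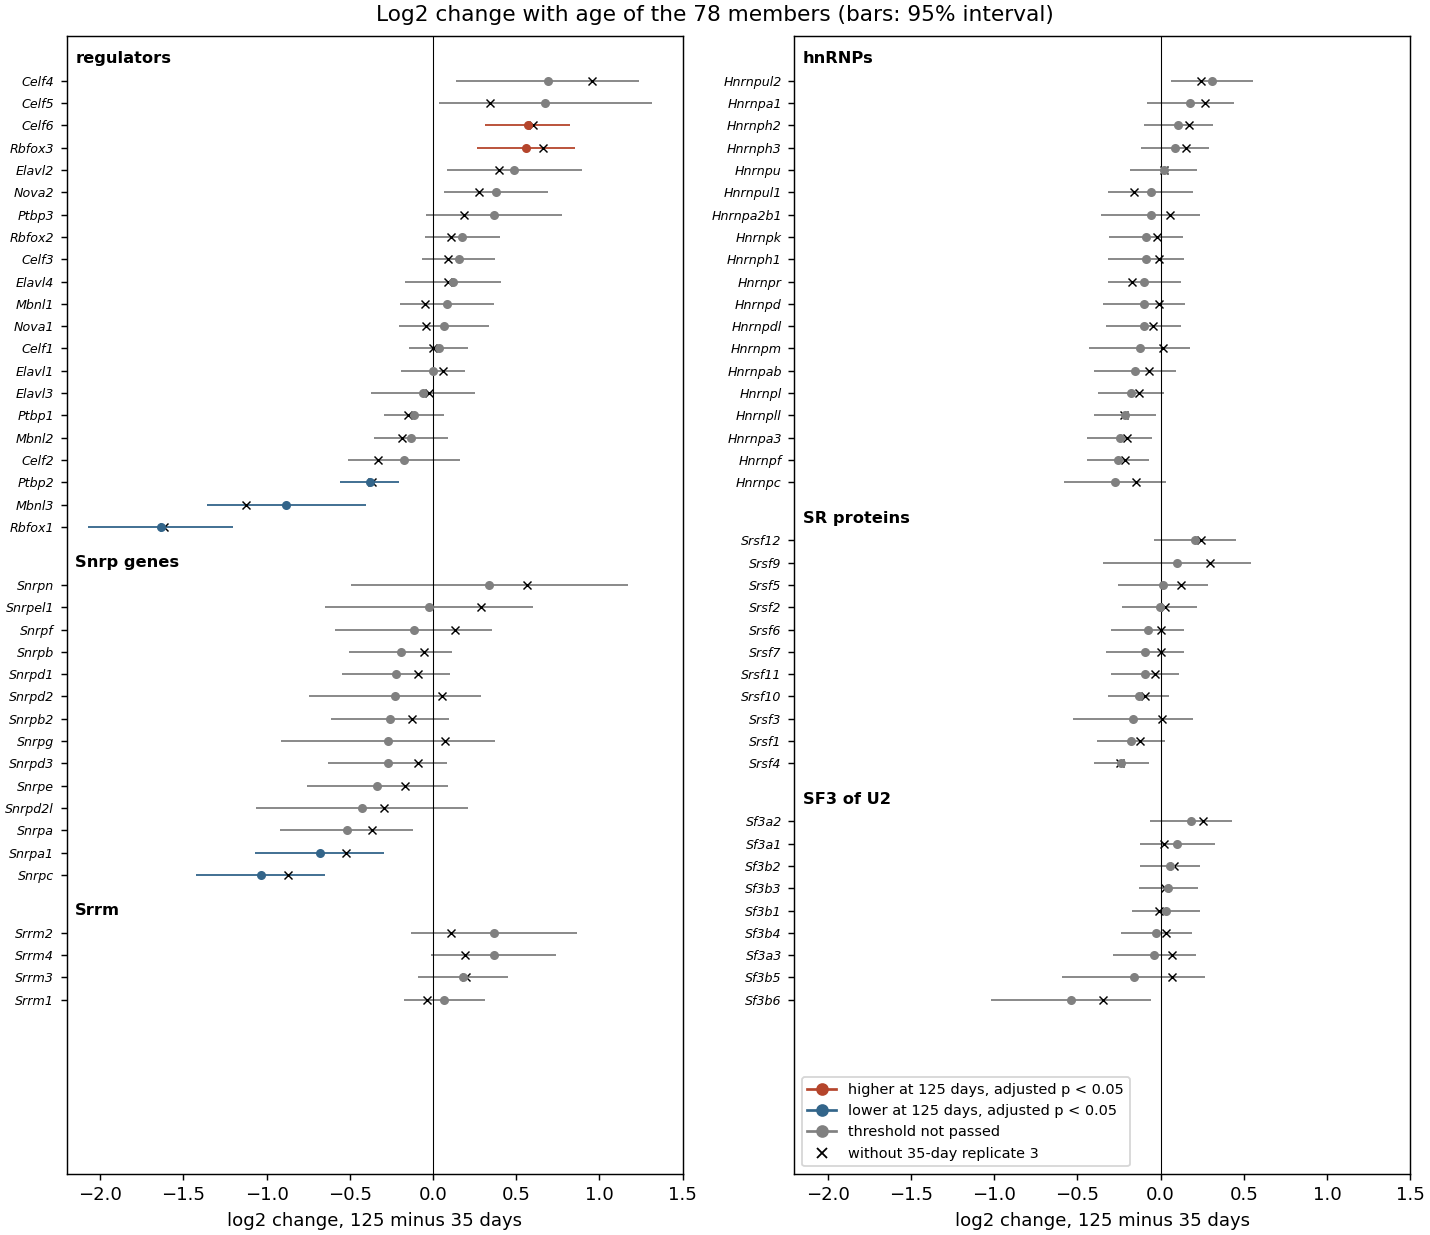
Log2 change, 125 minus 35 days, of the 78 members grouped by class, with bars for the 95% interval from limma, colour for the members that passed the threshold and crosses for the value without 35-day replicate 3. The regulators spread from -1.64 to 0.69, and the 11 SR protein genes lie between -0.24 and 0.21.

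The promoter windows of 4 called genes follow: Snrpc and Snrpa1 because these 2 snRNP genes fell, and Rbfox1 and Celf6 as the members with the largest fall and the largest called rise. Each runs 5′ to 3′ from 250 bases before to 50 after the RefSeq gene start in the assembly GRCr8, a later build than that of the counts. Capitals mark a cyclic AMP response element (CRE, TGACGTCA), CCAAT box (CCAAT), GC box (GGGCGG), ETS core (CCGGAAG), E-box (CACGTG) or TATA box (TATAAA) on either strand. The windows lie at chr20:5889979-5890278, plus strand (Snrpc), chr1:129051800-129052099, plus strand (Snrpa1), chr10:8999342-8999641, minus strand (Rbfox1) and chr8:68870843-68871142, plus strand (Celf6).
Snrpc: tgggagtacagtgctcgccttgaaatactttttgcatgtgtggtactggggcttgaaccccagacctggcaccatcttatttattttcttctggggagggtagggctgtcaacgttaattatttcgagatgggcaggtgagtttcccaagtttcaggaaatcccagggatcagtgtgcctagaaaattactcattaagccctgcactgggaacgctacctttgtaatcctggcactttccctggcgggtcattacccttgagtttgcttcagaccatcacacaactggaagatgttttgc
Snrpa1: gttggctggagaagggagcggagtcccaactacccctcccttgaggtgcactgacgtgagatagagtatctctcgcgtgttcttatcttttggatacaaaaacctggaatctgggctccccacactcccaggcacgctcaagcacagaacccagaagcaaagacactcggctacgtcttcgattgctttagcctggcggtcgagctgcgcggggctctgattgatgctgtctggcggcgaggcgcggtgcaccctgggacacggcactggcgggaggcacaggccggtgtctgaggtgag
Rbfox1: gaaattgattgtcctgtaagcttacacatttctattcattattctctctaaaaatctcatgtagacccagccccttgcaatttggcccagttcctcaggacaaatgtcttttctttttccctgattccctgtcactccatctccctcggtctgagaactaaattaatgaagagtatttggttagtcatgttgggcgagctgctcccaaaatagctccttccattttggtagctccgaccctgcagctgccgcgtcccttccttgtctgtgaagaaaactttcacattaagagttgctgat
Celf6: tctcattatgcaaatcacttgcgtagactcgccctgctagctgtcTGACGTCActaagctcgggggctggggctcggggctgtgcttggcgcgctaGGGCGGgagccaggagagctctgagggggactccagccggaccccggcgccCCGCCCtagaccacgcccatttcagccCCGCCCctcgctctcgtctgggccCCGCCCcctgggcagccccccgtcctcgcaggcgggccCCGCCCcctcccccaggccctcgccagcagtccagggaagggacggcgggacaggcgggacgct
None of the 6 motifs occurs in the Snrpc, Snrpa1 or Rbfox1 window. The Celf6 window holds 1 CRE and 5 GC boxes, none overlapping another, and 72.3% of its bases are G or C, against 43.7% for Rbfox1, 47.7% for Snrpc and 59.7% for Snrpa1.

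Rbfox1 had the largest change of the members. The Rbfox proteins bind GCAUG motifs beside neuronal and muscle exons. Rbfox1 was at 139, 80.1, 102 and 127 depth-normalized counts at 125 days, against 270.2, 372, 359 and 386 at 35 days. The ages did not overlap, and the highest 125-day value, in replicate 1, lay well under the lowest 35-day value, also in replicate 1. The fall was 3.11-fold (change of -1.64 in log2, SE 0.20, adjusted p = 4.48e-04, limma), and it passed the threshold under every alternative run. Without 35-day replicate 3 it was about as large (change of -1.62 in log2, SE 0.21, adjusted p = 5.18e-04), and with the melanotroph level as a covariate it was -1.77 (SE 0.33, adjusted p = 0.0123).

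Rbfox3, whose protein is the neuronal nuclear antigen NeuN, went the other way. It was at 1074, 829.8, 934 and 1049 at 125 days, against 587, 588, 809 and 661 at 35 days, and every 125-day library was above every 35-day library (change of 0.56 in log2, SE 0.13, adjusted p = 0.0172, limma). The highest 35-day value was that of replicate 3, and without it the rise was larger (change of 0.66 in log2, SE 0.10, adjusted p = 0.00144). The call was lost without 125-day replicate 1 or 4 or 35-day replicate 2 (adjusted p = 0.0539 to 0.0614). Rbfox2, the widely expressed member, was at 4332, 4301, 4422 and 3950.3 at 125 days, against 3585, 3991, 3259 and 4271 at 35 days, with overlapping ages (change of 0.18 in log2, SE 0.10, adjusted p = 0.266).

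Among the 6 Celf genes, which bind GU-rich RNA, 1 passed the threshold. Celf6 was at 1981, 1547, 1992 and 1848 depth-normalized counts at 125 days, against 1264, 1060.2, 1321 and 1315 at 35 days, without overlap. It rose 0.57 on the log2 scale (SE 0.11, adjusted p = 0.00774, limma) and kept the call without any 1 library, but not with the melanotroph covariate (change of 0.56 in log2, SE 0.18, adjusted p = 0.0716). Celf4, a regulator of neuronal transcripts, was at 2599, 1829.7, 2058 and 2139 at 125 days, against 939.8, 1319.6, 2309 and 1080.3 at 35 days. All but 1 of the 35-day libraries were below every 125-day library, and the exception was replicate 3, so that the call rested on that library: change of 0.69 in log2, SE 0.25, adjusted p = 0.0832 with it, and change of 0.96 in log2, SE 0.13, adjusted p = 8.72e-04 without it. The Celf4 rise was also called with the melanotroph covariate (change of 1.42 in log2, SE 0.30, adjusted p = 0.0199) and with the anterior lobe level in its place (change of 1.28 in log2, SE 0.17, adjusted p = 0.00137). Of the 35-day libraries, replicate 3 had the highest Celf4 value, the lowest melanotroph level and the highest anterior lobe level. Both fits are therefore not separate from leaving that library out.

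Celf5 was at 1418, 985, 1311 and 1229 at 125 days, against 895, 944, 382 and 1067 at 35 days, with the lowest value in 35-day replicate 3 (change of 0.68 in log2, SE 0.29, adjusted p = 0.136; without replicate 3, change of 0.34 in log2, SE 0.12, adjusted p = 0.0571). Celf2, another broadly used member of the family, was at 3114, 3469, 3266 and 3077 at 125 days, against 4336, 4205, 2624 and 3677 at 35 days (change of -0.17 in log2, SE 0.15, adjusted p = 0.468). Replicate 3 lay below all other libraries for Celf2, and without it the change was -0.33 (SE 0.07, adjusted p = 0.00904), past the threshold, as it also was with the anterior lobe covariate (adjusted p = 0.047). Replicate 3 also had the highest anterior lobe level, so that fit is not separate from leaving it out. Celf3 (6127 ± 406 at 125 days and 5515 ± 532 at 35 days; SD, n = 4 each) and Celf1 (5097 ± 164 at 125 days and 4981 ± 245 at 35 days) had 95% intervals for the log2 change of -0.06 to 0.37 and -0.14 to 0.21.

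Ptbp2, the neuronal form of the polypyrimidine tract-binding protein, which represses many neuronal exons, was at 1086, 1020.4, 1109.5 and 1024 at 125 days, against 1377, 1402, 1424 and 1315 at 35 days. The values within each age lay close together, and the ages did not overlap. The fall was small but larger than that spread (change of -0.38 in log2, SE 0.08, adjusted p = 0.00985, limma), and the call was kept without any 1 library (adjusted p up to 0.0435). With the melanotroph covariate the change was -0.33 (SE 0.12, adjusted p = 0.0846) and with the anterior lobe covariate -0.34 (SE 0.11, adjusted p = 0.059). Ptbp1, the form of non-neuronal cells, averaged 7303 ± 159 at 125 days and 7912 ± 413 at 35 days (change of -0.11 in log2, SE 0.08, adjusted p = 0.375). Ptbp3 was at 18455, 12578, 15841 and 15008 at 125 days, against 14186, 12904, 8236 and 13278 at 35 days, and its 95% interval was -0.04 to 0.77.

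Mbnl3, a muscleblind-like protein gene linked to immature muscle and other proliferating cells, was at 1323, 1037, 1397 and 1194 at 125 days, against 2715, 2614, 1369 and 2719 at 35 days. The other 3 libraries of 35 days lay close together and high, while replicate 3 fell within the 125-day range, so the ages overlapped (change of -0.88 in log2, SE 0.21, adjusted p = 0.0193, limma). Without replicate 3 the fall was larger (change of -1.12 in log2, SE 0.10, adjusted p = 6.07e-05). The call was lost without 125-day replicate 2 or 4 or 35-day replicate 1 or 2 (adjusted p = 0.0502 to 0.0564). The adult paralogs Mbnl1 (3863 ± 118 at 125 days and 3683 ± 623 at 35 days; change of 0.09 in log2, SE 0.13, adjusted p = 0.689) and Mbnl2 (8009 ± 196 at 125 days and 8819 ± 1028 at 35 days; change of -0.13 in log2, SE 0.10, adjusted p = 0.41) did not pass.

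**Figure D2:**
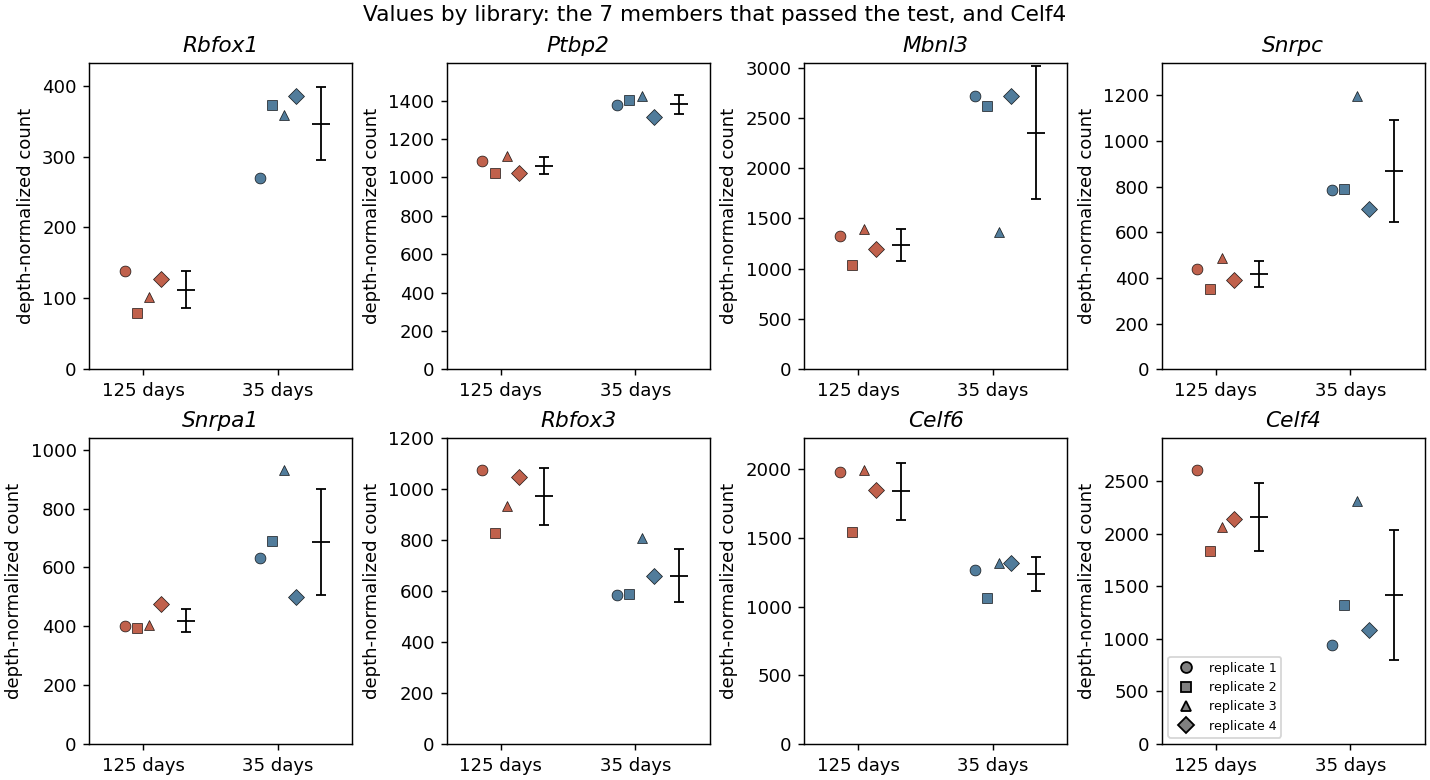
Depth-normalized counts by library, 125 days left and 35 days right, for the 7 members that passed the threshold and for Celf4. Marker shapes give the replicate number and bars the mean ± SD of 4 libraries; 35-day replicate 3 (triangle) lies inside the 125-day range for Mbnl3 and Celf4.

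The Elavl genes encode Hu proteins, which bind AU-rich RNA; Elavl1 is expressed in all tissues and the other family members are neuronal. None of the 4 passed in the first limma fit (0 of 4 in edgeR and DESeq2 too, and 1 at an unadjusted p below 0.05). Over all genes the shares were 17.7% in limma and edgeR, 23.4% in DESeq2 and 5666 of 17919 at that unadjusted p. Elavl2 was at 1021, 621, 922 and 900.3 at 125 days, against 740.1, 527, 498 and 695 at 35 days, with overlapping ages (change of 0.49 in log2, SE 0.18, adjusted p = 0.0945), and its change was -0.0059 with the melanotroph covariate (adjusted p = 0.989). It passed without 125-day replicate 2 and with the replicate number as a block (adjusted p = 0.0481), although no pairing by these numbers was seen. Elavl2 passed with library weights too (adjusted p = 0.00326, limma). Elavl1 averaged 1760.3 ± 64.5 at 125 days and 1762 ± 146 at 35 days, with a 95% interval of -0.19 to 0.19 for the log2 change. For Elavl3 (618 ± 106 at 125 days and 641 ± 80.6 at 35 days) the interval was -0.37 to 0.25, and for Elavl4 (558 ± 90.5 at 125 days and 509 ± 29.8 at 35 days) it was -0.17 to 0.41. Of the Nova genes, neuronal regulators that bind YCAY motifs, Nova2 was at 2260.2, 2175, 2203 and 2387 at 125 days, against 1612, 1719.5, 1405 and 2329.9 at 35 days (change of 0.38 in log2, SE 0.14, adjusted p = 0.0952). Only 35-day replicate 4 reached the 125-day range, and without that library Nova2 passed (adjusted p = 0.01), while with the melanotroph covariate its change was 0.00042 (adjusted p = 0.999). Nova1 averaged 908 ± 48.7 at 125 days and 875 ± 128 at 35 days (change of 0.07 in log2, SE 0.12, adjusted p = 0.753).

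Snrpc, which encodes the U1 protein that helps U1 hold the 5′ splice site, had the largest fall among the 57 members that are not regulators. It was at 439.8, 353, 488 and 390.0 depth-normalized counts at 125 days, against 786, 789, 1198 and 704 at 35 days. The ages did not overlap and the fall was 2.05-fold (change of -1.04 in log2, SE 0.17, adjusted p = 0.0031, limma). It passed without any 1 library, including 35-day replicate 3, the highest (change of -0.87 in log2, SE 0.12, adjusted p = 6.42e-04), but not with the melanotroph covariate (change of -0.56 in log2, SE 0.22, adjusted p = 0.113). Snrpa1, of the U2 particle, was at 401, 394, 403 and 477 at 125 days, against 632, 689, 929 and 498 at 35 days, also without overlap (change of -0.68 in log2, SE 0.17, adjusted p = 0.0237). That call was lost without 125-day replicate 1, 2 or 3 or 35-day replicate 2 (adjusted p = 0.0551 to 0.0685) and with the melanotroph covariate (change of -0.16 in log2, SE 0.20, adjusted p = 0.618). Snrpa, of U1, was at 381, 489.7, 353 and 470.2 at 125 days, against 595, 470.2, 828 and 564 at 35 days; 125-day replicate 2 and 4 overlapped the lowest 35-day library (change of -0.52 in log2, SE 0.18, adjusted p = 0.0764; without replicate 3, change of -0.37 in log2, SE 0.14, adjusted p = 0.0707).

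The 7 genes of the Sm ring measured here (Snrpb, Snrpd1, Snrpd2, Snrpd3, Snrpe, Snrpf and Snrpg) had log2 changes of -0.33 to -0.12. None of them passed in the first limma fit (none in edgeR or DESeq2, and none at an unadjusted p below 0.05). Over all genes the shares were 17.7% in limma and edgeR, 23.4% in DESeq2 and 5666 of 17919 at that unadjusted p. All 7 Sm ring genes were highest at 35 days in replicate 3. Snrpd2, for example, was at 2005, 1999, 2159 and 2094 at 125 days, against 1946, 1983, 4365 and 2029 at 35 days. Without replicate 3 their changes ran from -0.17 to 0.13. With the melanotroph covariate all 7 were above 0, and Snrpg, at 708, 872, 910.3 and 808 at 125 days, against 715, 769, 2032 and 862 at 35 days, passed as higher (change of 0.85 in log2, SE 0.20, adjusted p = 0.0292), against -0.27 without the covariate. Replicate 3 of 35 days had the highest Snrpg value and the lowest covariate level. Without that library and without the covariate, the Snrpg change was 0.07 (SE 0.10, adjusted p = 0.62, limma). Snrpb, the member of the whole Snrp class with the most reads, which also grow with transcript length, averaged 2419 ± 134 at 125 days and 2808 ± 612 at 35 days (change of -0.19 in log2, SE 0.14, adjusted p = 0.381). Over the 14 Snrp genes 13 changes were negative with all libraries (median -0.27), 9 without replicate 3 (median -0.09) and 4 with the melanotroph covariate (median 0.18), so the class as a whole had no single direction across these fits. Snrpd2l and Snrpel1 are uncertain, since reads that they may share with Snrpd2 and Snrpe could not be told apart. Snrpn, of which 4.87 to 16.6 depth-normalized counts were found per library, was too low to compare.

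SF3, SR and hnRNP genes, which act in nearly all spliced transcripts, gave no call in the first limma fit. Some of them passed in other limma fits, such as the one with library weights, which called 44% of all genes. The shares over all genes were 17.7% in edgeR, 23.4% in DESeq2 and 5666 of 17919 at an unadjusted p below 0.05. Of 9 SF3 genes none passed in the first limma fit (0 in edgeR, 1 in DESeq2, 1 at an unadjusted p below 0.05). Sf3b1, which grips the branch point helix, was at 14238, 14452, 14188 and 13155 at 125 days, against 13751, 14366, 12493 and 14222 at 35 days, and its 95% interval was -0.17 to 0.24. Sf3b6, which touches the branch point adenosine, had the largest change of that class, at 854, 693, 706 and 749 at 125 days, against 1271, 912, 1619 and 739 at 35 days (change of -0.54 in log2, SE 0.22, adjusted p = 0.116). For Sf3b6, 35-day replicate 4 lay within the 125-day range, and without that library the gene passed (adjusted p = 0.0302, limma).

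Of 11 SR genes none passed in the first limma fit (1 in edgeR, 1 in DESeq2, 1 at an unadjusted p below 0.05). Srsf4 was the gene in each, at 2379, 2200.1, 2332 and 2339 at 125 days, against 2678, 2816, 2672 and 2735 at 35 days. Its ages did not overlap, and it missed the threshold narrowly (change of -0.24 in log2, SE 0.07, adjusted p = 0.0537; without replicate 3, change of -0.25 in log2, SE 0.06, adjusted p = 0.0102). Srsf1, the founding SR protein, was at 7311, 8181, 8086 and 7966 at 125 days, against 8956, 8431, 9881 and 8421 at 35 days, also without overlap (change of -0.18 in log2, SE 0.09, adjusted p = 0.219). Srsf5 averaged 10429.8 ± 551 at 125 days and 10422 ± 1742 at 35 days, with an interval of -0.26 to 0.28. Srsf9 was at 1117, 1317, 1335 and 1284 at 125 days, against 814, 1087, 1769 and 1224 at 35 days, with both the lowest and the highest value at 35 days (change of 0.10 in log2, SE 0.20, adjusted p = 0.778). With the melanotroph covariate it passed as higher (change of 0.75 in log2, SE 0.21, adjusted p = 0.0494). The highest Srsf9 value was in 35-day replicate 3, the library with the lowest covariate level. Without that library and without the covariate, the Srsf9 change was 0.29 (SE 0.13, adjusted p = 0.114, limma).

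Of 19 hnRNP genes none passed in the first limma fit (0 in edgeR, 3 in DESeq2, 4 at an unadjusted p below 0.05). Over all genes the shares were 17.7% in edgeR, 23.4% in DESeq2 and 5666 of 17919 at that unadjusted p. The log2 changes of the hnRNP genes ran from -0.27 to 0.31. Hnrnpul2 had the largest, at 4460.4, 4549.8, 4855 and 4764 at 125 days, against 3438, 3877, 3288 and 4549 at 35 days (change of 0.31 in log2, SE 0.11, adjusted p = 0.0832). Without 35-day replicate 4 Hnrnpul2 passed (adjusted p = 0.0228, limma). Hnrnpa2b1, which also takes part in RNA transport, averaged 20129 ± 1315 at 125 days and 21172 ± 3735 at 35 days (change of -0.06 in log2, SE 0.13, adjusted p = 0.803). Hnrnpf, a binder of G-runs, was at 5044, 5457, 5578 and 5343 at 125 days, against 6302, 6161, 6978 and 6132 at 35 days, without overlap (change of -0.25 in log2, SE 0.08, adjusted p = 0.0632; without replicate 3, change of -0.21 in log2, SE 0.06, adjusted p = 0.0216). The other hnRNP genes whose ages did not overlap were Hnrnpa3, Hnrnpl and Hnrnpll, all with lower values at 125 days; these 4, Srsf1, Srsf9 and Snrpg, like Hnrnpa1 below, were named after their values were seen. Hnrnpa3 and Hnrnpll passed without replicate 3 (changes of -0.20 and -0.22 in log2, adjusted p = 0.0252 and 0.0353). In all, 2 members were higher in every 125-day library and 10 lower in every one, beside 13.4% and 11.5% of all genes (24.9% in all). Hnrnpa1 has many near-identical copies in mammalian genomes, so its values (17317 ± 884 at 125 days and 15405 ± 2210.4 at 35 days; without replicate 3, change of 0.27 in log2, SE 0.08, adjusted p = 0.0237) are uncertain.

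The 4 Srrm genes did not pass in the first limma fit (0 in edgeR and DESeq2, and none at an unadjusted p below 0.05). Over all genes the shares were 17.7% in limma and edgeR, 23.4% in DESeq2 and 5666 of 17919 at that unadjusted p. Srrm4, which drives the inclusion of neuronal microexons, was at 1328, 1236, 1289 and 1244 at 125 days, against 1166, 1258, 689.8 and 947 at 35 days (change of 0.36 in log2, SE 0.17, adjusted p = 0.171). Srrm2, a scaffold of nuclear speckles, was at 24104, 25020.5, 25081 and 21232 at 125 days, against 21460.2, 22134, 10791 and 22727 at 35 days (change of 0.37 in log2, SE 0.22, adjusted p = 0.299). With replicate 3 left out, the Srrm2 change was 0.11 (SE 0.08). Srrm3, which also acts on microexons, averaged 1648 ± 154 at 125 days and 1461 ± 218 at 35 days.

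How tightly the data bound a change varied by class. The 95% interval lay within 1.5-fold in either direction for 53 of the 78 members (46.4% of all genes tested): for all 19 hnRNP and all 11 SR genes, 7 of 9 SF3 genes, 12 of 21 regulators, 2 of 4 Srrm genes and 2 of 14 Snrp genes. The median coefficient of variation of the members was 5.19% at 125 days and 14.5% at 35 days, or 6.35% at 35 days without replicate 3. For the Snrp genes it was 8.90% at 125 days and 27.3% at 35 days, or 12.3% at 35 days without replicate 3.

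Replicate 3 of 35 days departed from the other 35-day libraries in different directions by class. All 14 Snrp genes, 14 of 19 hnRNP, 9 of 11 SR and 6 of 9 SF3 genes were highest there among the 35-day libraries, and 14 of 21 regulators and 3 of 4 Srrm genes were lowest there. Over all genes tested, it was the highest in 6926 and the lowest in 7157 of 17919. The median log2 difference from the mean of the other 3 libraries was 0.66 for Snrp genes, 0.25 for hnRNP, 0.24 for SR and 0.22 for SF3 genes, -0.22 for regulators and -0.55 for Srrm genes, and -0.01 over all genes. The part of the high anterior lobe marker sum of that library in these differences was not tested.

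**Figure D3:**
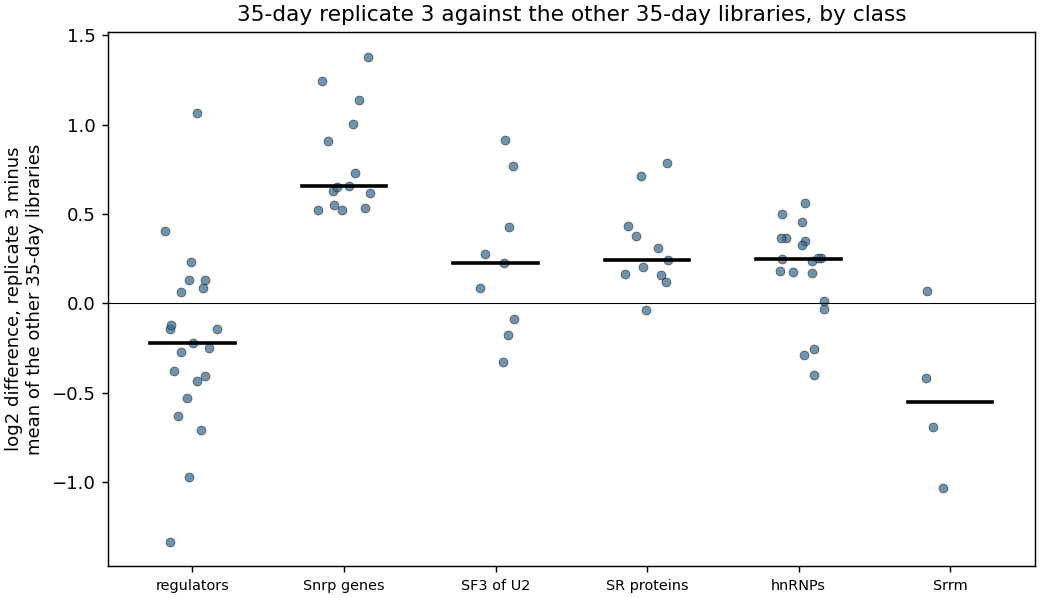
Log2 difference of 35-day replicate 3 from the mean of the other 35-day libraries, 1 point per member, with the class median as a bar. All 14 Snrp genes lie above 0 (0.52 to 1.38), and 14 of the 21 regulators were lowest in this library.

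Whether paralogs changed by unequal amounts was tested for 7 pairs as the log2 ratio within a library, by a two-sided exact permutation test over the 8 libraries (70 arrangements, smallest possible p = 0.0286), adjusted over the 7 pairs. The Rbfox2 to Rbfox1 log2 ratio was 5.26 ± 0.38 at 125 days and 3.45 ± 0.22 at 35 days (SD, n = 4 each), a difference of 1.81 with no overlap (exact permutation p = 0.0286, adjusted 0.1). The Ptbp2 to Ptbp1 ratio was -2.78 ± 0.08 at 125 days and -2.52 ± 0.11 at 35 days, a difference of -0.27, also with no overlap (exact permutation p = 0.0286, adjusted 0.1). With 7 pairs and 2 at the smallest possible p, neither could go below this adjusted value. The other differences were 0.66 for Celf4 to Celf1, 0.31 for Nova2 to Nova1, -0.22 for Mbnl2 to Mbnl1, 0.12 for Elavl4 to Elavl1 and -0.0016 for Srrm4 to Srrm2, with overlapping ages in each (exact permutation p = 0.0857 to 1, adjusted 0.16 to 1). For Celf4 to Celf1 the difference was 0.96 without 35-day replicate 3. These ratios compare a gene pair between ages, and their level also depends on transcript length.

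**Figure D4:**
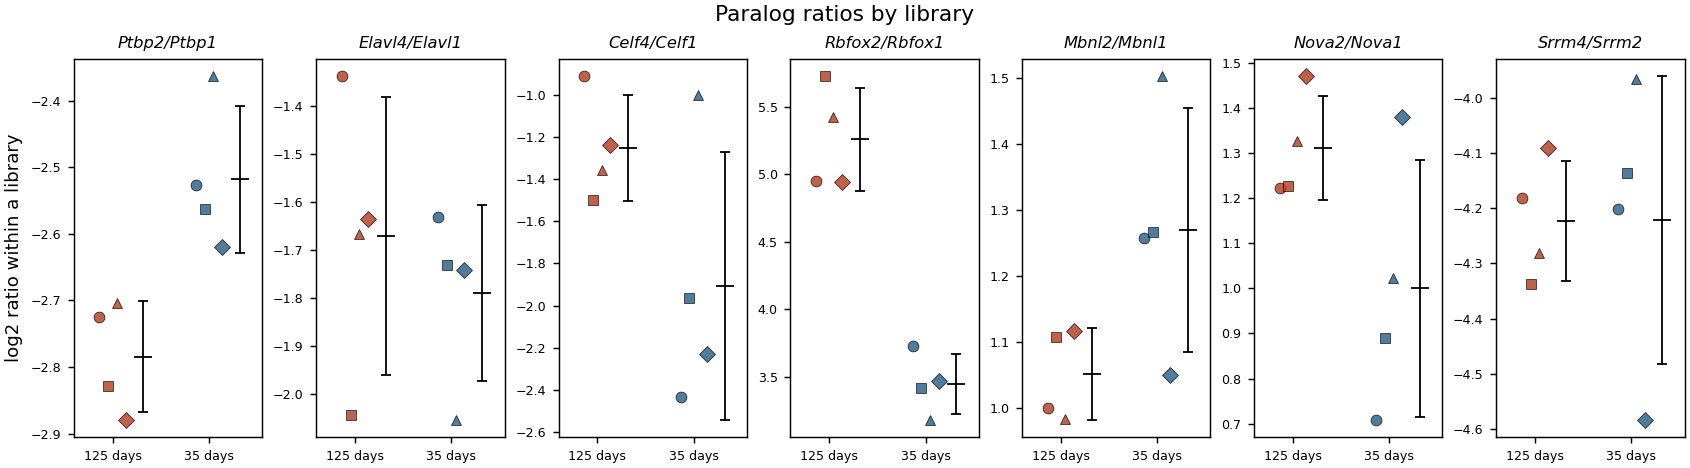
Log2 ratio of 2 paralogs within each library, 125 days left and 35 days right, with bars for the mean ± SD of 4 libraries and the same replicate markers as in the plot of values by library; each panel has its own axis. The ages do not overlap for Ptbp2/Ptbp1 and Rbfox2/Rbfox1.

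Beyond the members, a wider list of 189 genes for the remaining spliceosome and related RNA-binding proteins had 185 tested, of which 6 were higher and 7 lower at 125 days (7.03%, beside 17.7% of all genes; median log2 change -0.03). Without 35-day replicate 3 the counts were 11 and 13 (beside 15.9% and 14.8% of all genes), and with the melanotroph covariate 8 and 1 (beside 5.69% and 6.7%). Among 40 U1 to U6 and U2AF protein genes, 1 was higher and 1 lower: Prpf40b, linked to U1, averaged 1783 ± 71.1 at 125 days and 1466 ± 106 at 35 days (change of 0.28 in log2, SE 0.09, adjusted p = 0.0461), and Eftud2, the U5 GTPase, 1893 ± 61.3 at 125 days and 2314 ± 131 at 35 days (change of -0.29 in log2, SE 0.08, adjusted p = 0.0328). Of 43 genes of the Prp19 complex, helicases and late factors, the helicase gene Ddx39a (change of -0.41 in log2, SE 0.12, adjusted p = 0.0355) and Cwc22 (change of -0.28 in log2, SE 0.09, adjusted p = 0.0464), which brings in the exon junction complex, were lower. Scaf1 was higher among 27 genes for SR kinases and SR-like proteins (change of 0.28 in log2, SE 0.09, adjusted p = 0.0491). Each of these 5 calls was lost when any of 6 libraries was left out, and with the melanotroph covariate (adjusted p = 0.0705 for Eftud2, 0.291 for Prpf40b, 0.737 for Ddx39a, 0.177 for Cwc22 and 0.161 for Scaf1). None of 16 genes for assembly of the particles by the SMN complex passed in the first limma fit, edgeR or DESeq2, or at an unadjusted p below 0.05. The shares over all genes were 17.7% in limma and edgeR, 23.4% in DESeq2 and 5666 of 17919 at that unadjusted p.

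Of 59 other RNA-binding regulators tested, 4 were higher and 4 lower (13.6%, beside 17.7% of all genes). Esrp2, a splicing regulator of epithelial cells, was at 306, 243, 264 and 399 at 125 days, against 133, 101, 124 and 127 at 35 days, without overlap (change of 1.29 in log2, SE 0.17, adjusted p = 9.19e-04, limma), and it passed with the melanotroph covariate too (adjusted p = 0.0324). Raver2, a partner of the Ptbp proteins, was at 753, 602, 705 and 658 at 125 days, against 429.7, 467, 342 and 481 at 35 days (change of 0.67 in log2, SE 0.13, adjusted p = 0.00726). With the melanotroph covariate its log2 change was 0.27 (adjusted p = 0.224). Ybx1, a cold-shock domain protein that packages mRNA, averaged 4271 ± 253 at 125 days and 5779 ± 521 at 35 days (change of -0.43 in log2, SE 0.09, adjusted p = 0.0107), and Syncrip, an hnRNP-like protein, 3104 ± 93.8 at 125 days and 3845 ± 115 at 35 days (change of -0.31 in log2, SE 0.07, adjusted p = 0.0188). With the melanotroph covariate both calls were lost: the Ybx1 change was -0.19 (adjusted p = 0.224) and the Syncrip change -0.32 (adjusted p = 0.0711). The Syncrip call was also lost when any of 5 libraries was left out (adjusted p up to 0.0648) and with the replicate number as a block (adjusted p = 0.0654).

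Promoter windows were found for 68 of the 78 members (73 windows, since some genes have more than 1); those without one were Rbfox2, Rbfox3, Celf2, Celf4, Ptbp3, Hnrnpll, Sf3b2, Srrm2, Snrpd2l and Snrpel1. Their median GC content was 61%, against 51.7% over all 33469 windows of the table. An ETS core was in 23.3% of the members' windows, against 8.75% of all windows, a GC box in 60.3% against 33.1% and a CCAAT box in 53.4% against 37.5%. E-boxes (8.22% against 6.42%), TATA boxes (13.7% against 14.2%) and CREs (2.74% against 1.83%) were at closer shares. The full set of windows covers 27457 genes, more than the 17919 tested, and so includes genes below the minimum. Windows of the tested genes alone were not compared, so these gaps cannot be assigned to splicing genes. Of the called members with a window, Celf6 alone held a CRE, Celf6 and Ptbp2 a GC box and Mbnl3 a CCAAT box. A match describes these letters in this window and not a bound site.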

How the data were processed

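Neural lobe RNA was sequenced in 4 libraries of 125 days and 4 of 35 days. The deposited table holds depth-normalized signal per gene, and the values show how the authors scaled it: divided by a library's smallest value above 0, 100% of values came out whole (tolerance 0.001 reads), as read counts over a size factor would be. Trimmomatic 0.39, HISAT2 2.2.1, SAMtools 1.13, featureCounts (Subread 2.0.1), DESeq2 1.34.0 and build rn7 are named, per the submitters' processing notes, with no role stated. Annotation and strand setting: not given in the sources used here. Overlapping or antisense genes and reads shared by near-identical copies therefore cannot be told apart. No batch was labelled.

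The minimum was a value of 10 in 4 or more libraries. The test was limma 3.58.1 (R 4.3.3), two-sided, on log2(value + 1), its variance prior following the mean level, with age as the only term and Benjamini-Hochberg adjustment over all genes tested. Fold changes on this scale understate low genes. Alternatives were pseudocounts of 0.5 and 5, no minimum or a mean of at least 50, TMM and upper-quartile scaling, a constant prior, weights per library, the reads recovered from the table in edgeR 4.0.16 and DESeq2 1.42.0, the replicate number as a block, marker levels as covariates, and each library left out in turn. The test was also run on simulated counts. Genes were named by a rule: called members, up to 2 called genes a direction of each wider sub-list, all regulators, and in each class the member with the most reads and the uncalled one with the largest change; other names serve as examples of a class or were chosen after their values were seen. The members, lists and rule were chosen with earlier results of these data known. Promoter sequences are from RefSeq (GRCr8). Figures were drawn with matplotlib 3.10.9.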

Additional observations from a re-analysis of the deposited data

Results flagged for a closer look

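Of 83 groups of 4 libraries, taken over the named genes at each age, 8 held 1 library far from the other 3, measured as its gap to the nearest library divided by the group's range, above Dixon's 95% critical value. Chance alone gives this in about 1 group of 20. In 5 of the 8 the library was 35-day replicate 3: it was the lowest for Mbnl3 (0.923), Srrm2 (0.894), Celf1 (0.852) and Mbnl1 (0.839), and the highest for Elavl1 (0.853). In 2 it was 125-day replicate 4, the highest for Snrpa1 (0.885) and Elavl3 (0.858). The last was Snrpep2 at 125 days (1), with 1 read in replicate 2 and none in the other libraries.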

How the results depend on the processing

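Changing the pseudocount, the filter or the scaling, or dropping the trend, left all 7 member calls in place. Counts of the 78 members called higher and lower were 14 and 15 with library weights, beside 22.2% and 21.9% of all genes. They were 4 and 2 with the melanotroph covariate (beside 5.69% and 6.7%), and 2 and 11 in DESeq2 (beside 11.2% and 12.2%). The count over all genes was 7892 with library weights. In the wider list 45 genes were called with library weights, 20 in DESeq2, 8 without the trend, 7 with the anterior lobe covariate and 4 with the replicate block. Leaving out 1 library gave 1 to 4 members higher, 3 to 10 lower, 1894 to 5495 of all genes and 3 to 24 of the wider list; the count over all genes was 1978, 1948 and 1894 without 125-day replicates 1, 3 and 4 and 5495 without 35-day replicate 3. The cause of these shifts was not tested. Of 861 values for single named genes under an alternative, 84 lost a call, 30 gained one, 49 changed sign with no call in either fit and none reversed a call; 5 of 70 ratio values, all of Srrm4 to Srrm2, changed sign without a call. No pairing by replicate number was seen: deviations of same-numbered libraries correlated at 0.04, 0.17, -0.00019 and -0.12, and 1 of 4 correlated best with its own number. So few libraries cannot exclude a shared preparation by number. With that number as a block, 3 members were higher and 5 lower. Among the members tested, Snrpn, Snrpd2l and Snrpel1 had the fewest counts, with highest values of 16.6 (Snrpn), 45.8 (Snrpd2l) and 172 (Snrpel1) depth-normalized counts. The reason for these low counts was not tested.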
